A study of Mus musculus with 18 samples.

Results

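The apolipoprotein L (Apol) genes were followed through whole jejunum RNA of irradiated and untreated C57BL/6 mice. The 8 genes Apol10a, Apol10b, Apol7a, Apol7c, Apol9a, Apol9b, Apol6 and Apol8 were matched by symbol to identifiers in the deposited count table, which lists 54532 genes and 14 genes with an Apol symbol. The family was selected on measured values: Apol10a and Apol7c had been seen to be graded over the groups, lowest in FLASH, intermediate in CONV and highest in control libraries. Their differences between groups are therefore given as a description without a test, and such tests are given for the other 6 listed genes and for the 6 further annotated Apol genes.

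All mice were 8 to 12 weeks old. The 7 FLASH libraries came from mice given a single fraction of 15 Gy to the whole abdomen at ultra-high dose rate, and the 5 CONV libraries from mice given the same 15 Gy at conventional dose rate. Jejunum was taken 16 h after exposure, and the 6 control libraries came from mice that were not irradiated. The tissue was taken whole, so epithelium, immune cells, stroma and muscle were measured together, and fewer cells of a type cannot be told apart from less RNA per cell. The labels do not say in words that each library is a separate animal, and p-values measure the spread between libraries.

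Apolipoprotein L proteins are lipid-binding proteins of mammals, most of which act inside cells at membranes and are not plasma lipoprotein carriers. The human family member APOL1 is the exception that circulates on high-density lipoprotein and lyses trypanosomes. Interferons raise the transcription of many family members, through the interferon-stimulated response element (ISRE) bound by interferon-activated transcription factors, and mouse Apol7c and Apol9 proteins have been described in dendritic cells and in antiviral or antibacterial defence. In mice the family is expanded as a tandem array of closely related genes and pseudogenes.

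The array was examined for promoter sequence first, because members that moved together could be set beside those that did not. On GRCm38.p6 (mm10), 13 of the 14 Apol genes lay on chromosome 15, Apol6 at 77044729 to 77057106 and the other 12 between Apol7a at 77388219 to 77399110 and Apol8 at 77747798 to 77757003. The exception was Apol7d, a symbol that the annotation places on an antisense gene on chromosome 1 at 71652837 to 71662843, opposite Fn1. RefSeq promoter windows of 300 bases were found for 11 of the 14. The windows of 6 genes are shown 5′ to 3′ on the gene's own strand, from RefSeq on GRCm38.p6. Apol10a, Apol11b, Apol10b and Apol7c stand for genes that were lower after irradiation, Apol7a for an abundant gene that did not pass a test, and Apol9a for the Apol9 copies. Capitals mark matches to the ISRE core GAAANNGAAA, the gamma-activated site (GAS) core TTCNNNGAA and the AP-1 site TGANTCA, each searched on both strands.
Apol10a, chr15:77476797-77477096, plus strand: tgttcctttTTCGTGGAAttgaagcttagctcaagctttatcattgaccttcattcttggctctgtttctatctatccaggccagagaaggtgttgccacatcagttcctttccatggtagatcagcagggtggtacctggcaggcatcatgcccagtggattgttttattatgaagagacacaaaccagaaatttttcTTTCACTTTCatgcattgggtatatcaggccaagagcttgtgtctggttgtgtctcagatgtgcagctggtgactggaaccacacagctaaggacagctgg
Apol11b, chr15:77643237-77643536, minus strand: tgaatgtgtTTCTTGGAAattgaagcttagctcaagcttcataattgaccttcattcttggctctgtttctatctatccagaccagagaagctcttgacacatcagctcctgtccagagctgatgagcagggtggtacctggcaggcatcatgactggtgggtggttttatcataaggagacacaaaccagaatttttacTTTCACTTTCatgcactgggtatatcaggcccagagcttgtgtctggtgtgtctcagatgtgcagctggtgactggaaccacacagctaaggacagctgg
Apol10b, chr15:77596076-77596375, minus strand: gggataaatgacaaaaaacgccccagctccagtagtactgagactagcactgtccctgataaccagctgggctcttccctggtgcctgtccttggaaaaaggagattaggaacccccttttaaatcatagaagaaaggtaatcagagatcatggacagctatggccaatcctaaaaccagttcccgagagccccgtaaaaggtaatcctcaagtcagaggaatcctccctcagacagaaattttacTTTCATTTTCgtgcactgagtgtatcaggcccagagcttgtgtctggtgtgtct
Apol7c, chr15:77533266-77533565, minus strand: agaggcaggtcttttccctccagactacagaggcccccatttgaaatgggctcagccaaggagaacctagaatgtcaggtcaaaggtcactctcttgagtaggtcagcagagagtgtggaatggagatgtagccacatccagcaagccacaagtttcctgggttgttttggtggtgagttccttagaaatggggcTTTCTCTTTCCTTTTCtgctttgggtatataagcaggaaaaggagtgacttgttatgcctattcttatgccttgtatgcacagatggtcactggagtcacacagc
Apol7a, chr15:77399061-77399360, minus strand: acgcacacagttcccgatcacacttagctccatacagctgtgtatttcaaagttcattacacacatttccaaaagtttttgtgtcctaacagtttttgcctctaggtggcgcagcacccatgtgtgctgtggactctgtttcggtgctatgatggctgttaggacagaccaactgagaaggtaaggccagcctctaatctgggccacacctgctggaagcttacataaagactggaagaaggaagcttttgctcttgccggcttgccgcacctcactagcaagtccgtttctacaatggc
Apol9a, chr15:77411031-77411330, minus strand: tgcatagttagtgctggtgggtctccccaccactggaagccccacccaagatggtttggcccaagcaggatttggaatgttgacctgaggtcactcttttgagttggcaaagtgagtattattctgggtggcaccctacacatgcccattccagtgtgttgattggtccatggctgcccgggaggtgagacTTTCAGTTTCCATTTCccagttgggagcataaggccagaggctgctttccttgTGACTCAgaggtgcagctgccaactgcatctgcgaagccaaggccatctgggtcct

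An ISRE core stood in the window of 8 of the 11 genes with one, namely Apol10a, Apol10b, Apol7c, Apol7e, Apol9a, Apol9b, Apol11a and Apol11b. Among all 32851 RefSeq promoter windows of the same length, 3.44% held this core. Apol7c carried a pair of ISRE cores that overlap each other, at -55 to -46 and -49 to -40 from its start, and Apol10a a single one at -51 to -42. Such overlapping pairs also stood in the windows of Apol7e, Apol9a and Apol9b, so the pair is not particular to Apol7c. The Apol10b core spanned its annotated start, at -4 to 5. A GAS core was present in Apol10a, Apol11a and Apol11b, at -241 to -233 in each, against 8.3% of all windows. An AP-1 site was present in Apol9a and Apol9b, against 7.81% of all windows. The ETS-IRF composite GGAANNGAAA, which 2.72% of all windows held, was in none of the 11. The Apol7a, Apol7b and Apol8 windows held none of the 4 motifs. The Apol11a and Apol11b windows were identical at 298 of 300 aligned bases, and Apol10a and Apol11b shared 89.3% of their window. Letter matches are a description of these windows and do not show that a factor bound there.

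Near-identical copies limit how firmly reads can be assigned. Of all 100-base stretches of annotated transcript, the length of the reads, Apol7b shared 54.5% and Apol7e 55.3% with another Apol gene or a pseudogene of the array. The longest transcripts of Apol7b and Apol7e were 99.3% identical over 2208 aligned bases. Apol9b shared 36.7% and Apol9a 11.7% of such stretches with each other. Apol7c shared 6.19%, Apol7a 3.37% and Apol10a 1.81%, and Apol10b, Apol6 and Apol8 shared 0. Values of Apol7b, Apol7e, Apol9a and Apol9b are uncertain to that extent.

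Apol10a, in control jejunum the most abundant family member, had the widest absolute range of levels. Levels are read counts relative to library size (CPM), with library totals scaled by the trimmed mean of M-values (TMM). In FLASH libraries Apol10a ranged between 4.70 and 17.9 CPM with a median of 6.34 CPM. In the CONV libraries 2, 3, 5, 6 and 7 it was 25.3, 109, 62.9, 21.6 and 291 CPM. In control libraries it ranged between 336 and 724 CPM with a median of 505 CPM. The groups did not overlap: each FLASH library was below each CONV library, and each CONV library was below each control library.

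The group means of Apol10a were 7.98 ± 4.68 CPM in FLASH (SD, n = 7), 102 ± 111 CPM in CONV (SD, n = 5) and 519 ± 154 CPM in control (SD, n = 6). The mean of FLASH libraries was thus 65-fold below that of controls and 12.8-fold below that of CONV libraries. The fitted log2 fold change was -6.02 ± 0.58 (SE) for FLASH against control, -2.35 ± 0.56 for CONV against control and -3.68 ± 0.53 for FLASH against CONV. CONV 7 carried much of the CONV mean: without it the log2 fold change of CONV against control was -3.25 and that of FLASH against CONV was -2.78.

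Apol7c, which in mouse dendritic cells is known to insert into phagosome membranes, followed the same order. Its FLASH libraries ranged between 2.6 and 13.1 CPM with a median of 3.63 CPM. Its level in CONV libraries 2, 3, 5, 6 and 7 was 14.7, 21, 16, 15.8 and 54.1 CPM. Its control libraries ranged between 40.3 and 71.4 CPM with a median of 52.7 CPM. FLASH and CONV libraries did not overlap, whereas CONV 7 lay among the controls and the other 4 CONV libraries lay below them. Means were 5.99 ± 4.21 CPM in FLASH (SD, n = 7), 24.3 ± 16.8 CPM in CONV (SD, n = 5) and 53.2 ± 11.9 CPM in control (SD, n = 6). The fitted log2 fold change of Apol7c was -3.15 ± 0.41 (SE) for FLASH against control, -1.13 ± 0.43 for CONV against control and -2.03 ± 0.41 for FLASH against CONV. Because both genes chose the family, these values carry no test. Among all 16257 genes tested, every FLASH library was below every control library in 6.86%, every CONV library was below every control library in 4.95%, and every FLASH library was below every CONV library in 4.45%.

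**Figure D1:**
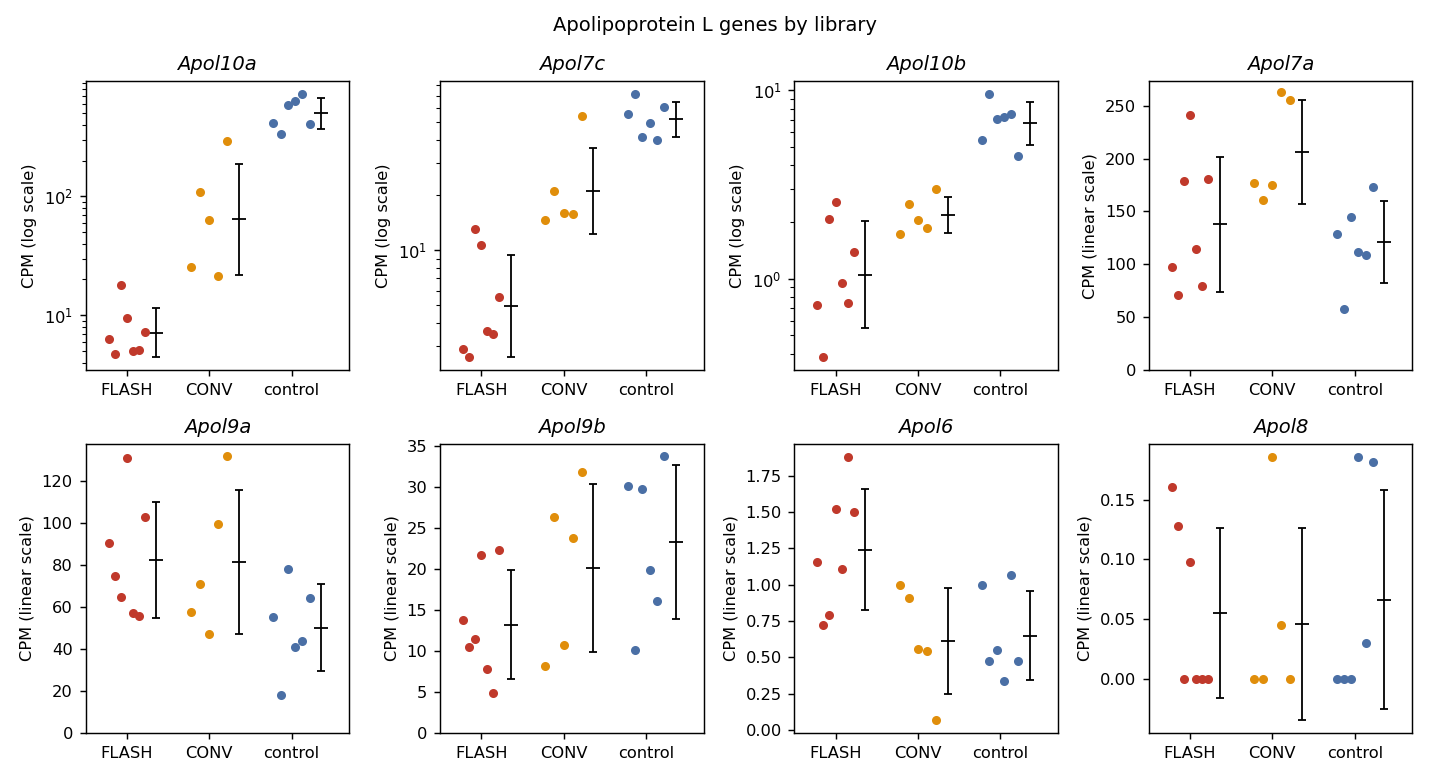
Level of the 8 Apol genes in each library, in CPM, with FLASH (n = 7), CONV (n = 5) and control (n = 6) from left to right. Points are libraries; black marks are the mean ± SD on the linear axes, and the geometric mean ± SD of log2 values on the log axes used for Apol10a, Apol7c and Apol10b. Apol10a separates into 3 levels, with FLASH at 4.70 to 17.9, CONV at 21.6 to 291 and control at 336 to 724 CPM.

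Of the 6 listed genes that did not choose the family, 5 had enough counts to test, and Apol10b alone passed. The test was edgeR's quasi-likelihood test over all genes with Benjamini-Hochberg adjustment at 0.05. In FLASH against control 1 of the 5 was lower and 0 were higher, where 37.7% of all genes passed and 21.0% were lower. In CONV against control 1 of the 5 was lower and 0 were higher, where 22.2% of all genes passed and 12.0% were lower. In FLASH against CONV 0 of the 5 passed, where 19.8% of all genes passed and 9.91% were lower. With 5 genes, these counts are near the shares over all genes. At an unadjusted edgeR p under 0.05 the counts were 4, 3 and 2 of 5, where 46.7%, 38.5% and 34.3% of all genes passed. After adjustment, DESeq2 passed 3 of the 5 in FLASH against control, 2 in CONV against control and 0 in FLASH against CONV. In that order limma-voom passed 2, 1 and 1. The shares of all genes under DESeq2 and limma-voom are not given here.

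Apol10b, a neighbour and relative of Apol10a (84.7% identical over 1826 aligned transcript bases), was expressed at a low level. It ranged between 0.384 and 2.55 CPM with a median of 0.948 CPM in FLASH libraries. It was 1.73, 2.48, 2.05, 1.85 and 2.98 CPM in CONV libraries 2, 3, 5, 6 and 7, and 4.49 to 9.55 CPM with a median of 7.12 CPM in control libraries. All irradiated libraries lay below all controls, while FLASH and CONV libraries overlapped. Over all genes tested, every FLASH library was below every control in 6.86%, and every CONV library was in 4.95%. Apol10b fell in FLASH against control, with a log2 fold change of -2.46 ± 0.34 (SE, edgeR adjusted p = 2.6e-05). It also fell in CONV against control, by 1.63 ± 0.37 on the log2 scale (edgeR adjusted p = 0.00505). The difference between FLASH and CONV was -0.83 ± 0.35 on the log2 scale and did not pass (edgeR adjusted p = 0.102, 95% interval -1.52 to -0.14). Without FLASH 5 that difference was -1.09 and passed (edgeR adjusted p = 0.0266).

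None of the remaining listed genes passed the main test in any comparison. Apol7a, 91.8% identical to Apol7c over 1955 aligned transcript bases, had 70.8 to 241 CPM (median 115) in FLASH libraries. It had 177, 161, 175, 263 and 255 CPM in CONV libraries 2, 3, 5, 6 and 7, and 57.7 to 173 CPM (median 120) in controls. The FLASH libraries overlapped the controls, and 4 of the 5 CONV libraries were above all controls. No difference of Apol7a passed: the log2 fold change was 0.19 ± 0.28 (SE) for FLASH against control, with a 95% interval of -0.36 to 0.74 and an edgeR adjusted p of 0.627. It was 0.77 ± 0.31 for CONV against control (edgeR adjusted p = 0.0749), and without control 6 it was 0.90 and passed (edgeR adjusted p = 0.0307). It was -0.58 ± 0.29 for FLASH against CONV (edgeR adjusted p = 0.172).

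Apol9a and Apol9b, whose mouse proteins bind phosphatidylethanolamine and have been linked to antiviral defence, were both expressed in every library. Apol9a was 55.6 to 131 CPM (median 74.9) in FLASH, 46.9 to 132 CPM (median 70.7) in CONV and 18.2 to 78.0 CPM (median 49.4) in control libraries. Apol9b was 4.86 to 22.3 CPM (median 11.4) in FLASH, 8.17 to 31.8 CPM (median 23.8) in CONV and 10.1 to 33.8 CPM (median 24.8) in control libraries. All these groups overlapped. The log2 fold change of Apol9a was 0.72 ± 0.30 (SE) for FLASH against control (edgeR adjusted p = 0.0674), and it passed when control 3 or control 6 was left out (0.89 and 0.80, edgeR adjusted p = 0.0342 and 0.0495). That of Apol9b was -0.82 ± 0.37 for the same comparison (edgeR adjusted p = 0.0919). Apol9b passed there with library totals only, with 1 surrogate variable and with a transcript length and GC offset. The values were -1.18, -1.09 and -0.92 (edgeR adjusted p = 0.0132, 0.0331 and 0.0335). The means of Apol9b ran in the order of those of Apol10a, at 13.2 CPM in FLASH, 20.2 CPM in CONV and 23.3 CPM in control. For CONV against control the values were 0.70 ± 0.32 for Apol9a (edgeR adjusted p = 0.119) and -0.21 ± 0.41 for Apol9b (edgeR adjusted p = 0.724). For FLASH against CONV they were 0.02 ± 0.31 for Apol9a (edgeR adjusted p = 0.975) and -0.61 ± 0.39 for Apol9b (edgeR adjusted p = 0.284).

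The proportion of the 2 Apol9 copies differed between groups although their sum overlapped. The ratio of Apol9a to Apol9b was 4.63 to 11.4 (median 6.53) in FLASH libraries, 7.07, 2.69, 4.39, 4.17 and 4.13 in CONV libraries 2, 3, 5, 6 and 7, and 1.79 to 2.71 (median 1.98) in control libraries. All FLASH ratios were above all control ratios, and CONV 3 alone among irradiated libraries fell within the control range. The geometric mean ratio was 6.71 in FLASH (n = 7) and 2.12 in control (n = 6), a difference with a two-sided exact permutation p of 0.00117, the smallest these group sizes allow, or 0.00351 adjusted over the 3 comparisons. It was 4.28 in CONV (n = 5) against 2.12 in control (n = 6), with an exact permutation p of 0.00866, adjusted 0.013. Between FLASH (n = 7) and CONV (n = 5) the exact permutation p was 0.0303, adjusted 0.0303. This test was chosen after the levels had been seen. The sum of both genes was 95.4 ± 33.6 CPM in FLASH (SD, n = 7), 101 ± 43.2 CPM in CONV (SD, n = 5) and 73.3 ± 29.4 CPM in control (SD, n = 6). How the shared stretches divide reads between the copies was not tested.

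**Figure D2:**
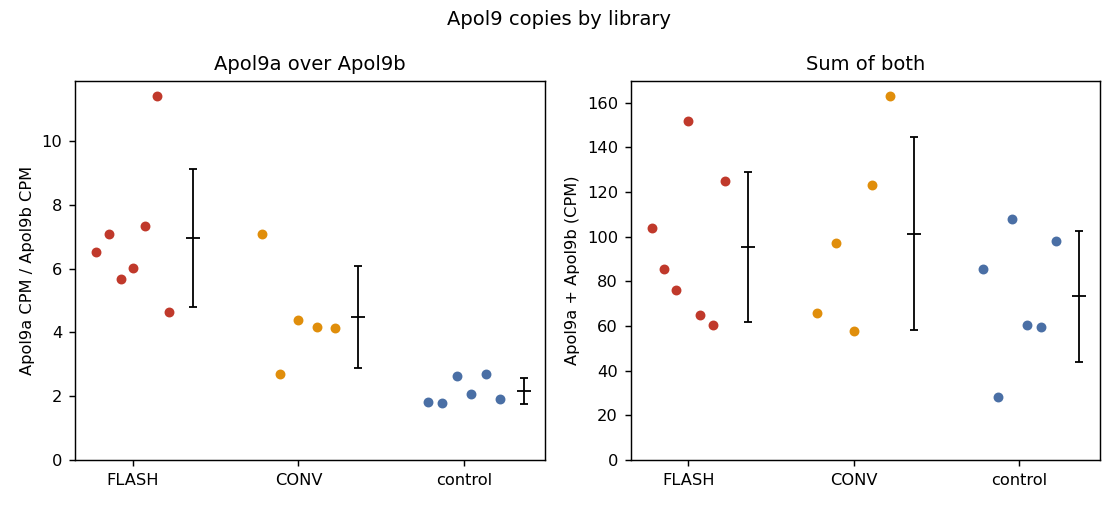
Ratio of Apol9a to Apol9b (left) and the sum of both in CPM (right) in each FLASH, CONV and control library; points are libraries and black marks the mean ± SD. The ratio is 4.63 to 11.4 in FLASH and 1.79 to 2.71 in control, while the sums of the 3 groups overlap.

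Apol6 and Apol8 were near the limit of detection. Apol6 had 0.726 to 1.88 CPM (median 1.16) in FLASH, 0.0709 to 0.995 CPM (median 0.558) in CONV and 0.335 to 1.07 CPM (median 0.511) in control libraries. Its log2 fold change was 0.92 ± 0.42 (SE) for FLASH against control (edgeR adjusted p = 0.0881), -0.10 ± 0.46 for CONV against control (edgeR adjusted p = 0.884) and 1.02 ± 0.45 for FLASH against CONV (edgeR adjusted p = 0.114). Apol8 had 9 counts in all over the FLASH libraries, 6 over the CONV libraries and 11 over the control libraries, and was not tested. At this depth no difference of Apol8 was detectable.

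The 6 further annotated Apol genes included the deepest fitted falls of the family. Of the 5 with enough counts, 3 were lower in FLASH against control, 4 were lower in CONV against control, and in FLASH against CONV 1 was lower and 1 higher. Over all genes 21.0%, 12.0% and 9.91% were lower in these comparisons, and 16.7%, 10.2% and 9.88% were higher. Apol10c-ps, Apol11b and Apol11a reached the filter's 10 counts at the median library size in 6, 6 and 5 of the 6 controls but in 0 of the 7 FLASH libraries and in 3, 1 and 0 of the 5 CONV libraries. They entered the test through the group where they are high. Their calls and adjusted p-values, and the counts of genes that passed, therefore carry no weight of their own. Without the filter their values and calls against control were the same in direction and side of the threshold. That is a description and does not give the calls weight. The transcribed pseudogene Apol10c-ps, 98.6% identical to Apol10a over 840 aligned bases, had 0 counts in 4 of the 7 FLASH libraries and 0.0401, 0.396 and 0.162 CPM in FLASH 1, 4 and 9. It had 0.209, 3.80, 1.60, 0.226 and 5.85 CPM in CONV libraries 2, 3, 5, 6 and 7, and 19.7 to 70.7 CPM (median 36.3) in controls. Its log2 fold change was -8.84 ± 0.87 (SE) for FLASH against control (edgeR adjusted p = 8.9e-07) and -4.08 ± 0.73 for CONV against control (edgeR adjusted p = 1.0e-03). FLASH was also below CONV, with -4.76 ± 0.87 (edgeR adjusted p = 0.00157). Leaving out FLASH 4 moved the FLASH against control and FLASH against CONV values to -9.99 and -5.91, and leaving out CONV 7 moved the CONV against control and FLASH against CONV values to -4.74 and -4.10.

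Set against Apol10a, the pseudogene also made up a smaller share after irradiation, which is a description because Apol10a chose the family. Apol10c-ps counts were 0.730 ± 1.06% of Apol10a counts in FLASH (SD, n = 7), 1.99 ± 1.10% in CONV (SD, n = 5) and 7.47 ± 1.57% in control (SD, n = 6). The CONV and control percentages did not overlap, at 0.828 to 3.50% against 5.87 to 9.76%. A FLASH percentage rests on at most 9 pseudogene counts in a library.

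Apol11b, whose promoter window is printed above, had at most 0.0881 CPM in any FLASH library and 0 in 4 of them. It was at 0 in CONV 2, 5 and 6 and at 0.244 and 0.497 CPM in CONV 3 and 7, against 2.38 to 6.43 CPM (median 2.78) in controls. It fell in FLASH against control by 6.71 ± 0.81 on the log2 scale (SE, edgeR adjusted p = 7.0e-06) and in CONV against control by 4.46 ± 0.76 (edgeR adjusted p = 6.6e-04), with a value of -5.61 without CONV 7. The difference of FLASH from CONV was -2.24 ± 0.97 and did not pass (edgeR adjusted p = 0.11), and without CONV 7 it was -1.09. Apol11b entered the test through the controls, where it is high, so its calls against control carry no weight of their own. Apol11a, with the near-identical promoter window, reached only 0.512 CPM in any library. It passed in CONV against control (log2 fold change -2.98 ± 0.92, edgeR adjusted p = 0.0286), but not when CONV 2, 5, 6 or 7 was left out (edgeR adjusted p = 0.0708, 0.0584, 0.0786 and 0.0648), and all 6 of its CONV counts lay in CONV 3, without which CONV was at 0. Apol11a too entered the test through the controls, so this call carries no weight of its own. Its log2 fold change was -1.50 ± 0.72 for FLASH against control (edgeR adjusted p = 0.108) and 1.47 ± 0.97 for FLASH against CONV (edgeR adjusted p = 0.301), which passed without CONV 3 (edgeR adjusted p = 0.033).

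Apol7e ran in another order, with CONV the lowest group. It was 4.01 to 7.17 CPM (median 5.82) in FLASH libraries, 3.77, 2.86, 2.05, 2.84 and 3.72 CPM in CONV libraries 2, 3, 5, 6 and 7, and 6.11 to 11.9 CPM (median 9.37) in controls. Every FLASH library was above every CONV library, a pattern whose share over all genes was not computed. Every CONV library was below every control, as in 4.95% of all genes tested. Apol7e was lower in FLASH than in control (log2 fold change -0.67 ± 0.20 SE, edgeR adjusted p = 0.0123), lower in CONV than in control (-1.60 ± 0.23, edgeR adjusted p = 1.3e-04) and higher in FLASH than in CONV (0.93 ± 0.22, edgeR adjusted p = 0.00665). With the counts of Apol7a, Apol7b, Apol7c, Apol7d and Apol7e summed, a quantity that is mostly Apol7a, no comparison passed, and the log2 fold changes were -0.30, 0.33 and -0.64 (edgeR adjusted p = 0.361, 0.364 and 0.091). With the counts of Apol7b and Apol7e alone summed, a check chosen after the data were seen, the 3 values were -0.75, -1.59 and 0.84 (edgeR adjusted p = 0.00841, 2.2e-04 and 0.0155). Apol7b alone was 0.395 to 1.62 CPM in FLASH, 0.0698 to 1.81 CPM in CONV and 0.536 to 3.43 CPM in control libraries. It had log2 fold changes of -1.13 ± 0.49, -1.55 ± 0.56 and 0.42 ± 0.54 in the same order, none of which passed (edgeR adjusted p = 0.0778, 0.0534 and 0.631). The first passed without control 2 (edgeR adjusted p = 0.0394), and the second without control 2 or CONV 6 (edgeR adjusted p = 0.0332 and 0.0259). Apol7d had at most 3 counts in a library and was not tested.

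**Figure D3:**
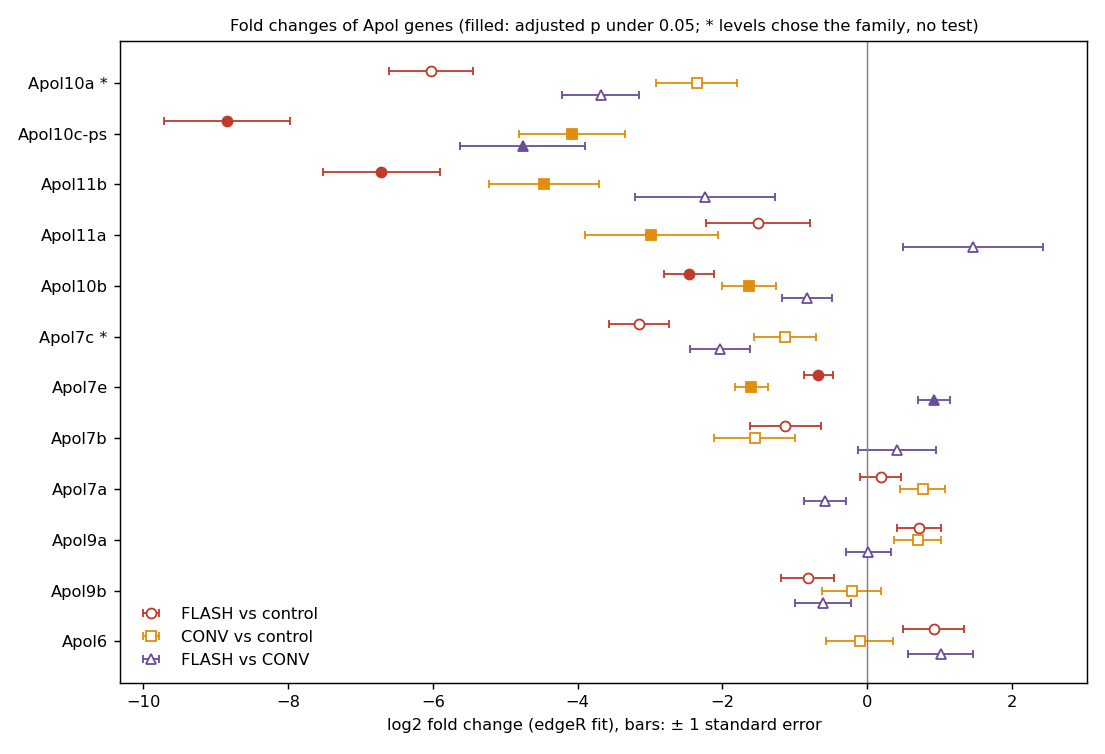
Fitted log2 fold change ± 1 SE of 12 Apol genes for FLASH against control (circles), CONV against control (squares) and FLASH against CONV (triangles). Filled symbols passed an edgeR adjusted p of 0.05, and the genes with an asterisk chose the family and carry no test. Apol10c-ps, Apol11b and Apol11a passed the count filter through the controls, so their filled symbols carry no weight of their own. Apol10c-ps lies lowest at -8.84 in FLASH against control, and Apol7e is to the right of 0 in FLASH against CONV, at 0.93.

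The make-up of family RNA differed between groups. The summed level of the 13 Apol genes of chromosome 15 was 257 ± 97.6 CPM in FLASH (SD, n = 7), 443 ± 195 CPM in CONV (SD, n = 5) and 830 ± 183 CPM in control (SD, n = 6). Apol10a made up 2.17 to 6.06% of family counts in FLASH libraries, 5.01 to 37.5% in CONV and 51.3 to 70.1% in control libraries, and since it chose the family this is a description. The shares of the other genes depend on that of Apol10a in the same sum and are a description too. Apol7a made up 40.9 to 60.8% in FLASH, 32.8 to 61.0% in CONV and 10.5 to 22% in control. Apol9a made up 22 to 43.3% in FLASH, 14.8 to 23.1% in CONV and 3.4 to 8.15% in control. Among these 5 listed genes, the group mean level in controls per kilobase of longest transcript was 171 CPM per kb for Apol10a, 50.6 for Apol7a, 25.8 for Apol7c, 14.8 for Apol9b and 11.8 for Apol9a. In FLASH libraries the order on that scale was Apol7a at 57.7, Apol9a at 19.4, Apol9b at 8.39, Apol7c at 2.91 and Apol10a at 2.63 CPM per kb, and the last pair differed by less than the spread between libraries. With the median transcript length in place of the longest, Apol9a stood above Apol9b in controls, at 32.7 against 19.5 CPM per kb.

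**Figure D4:**
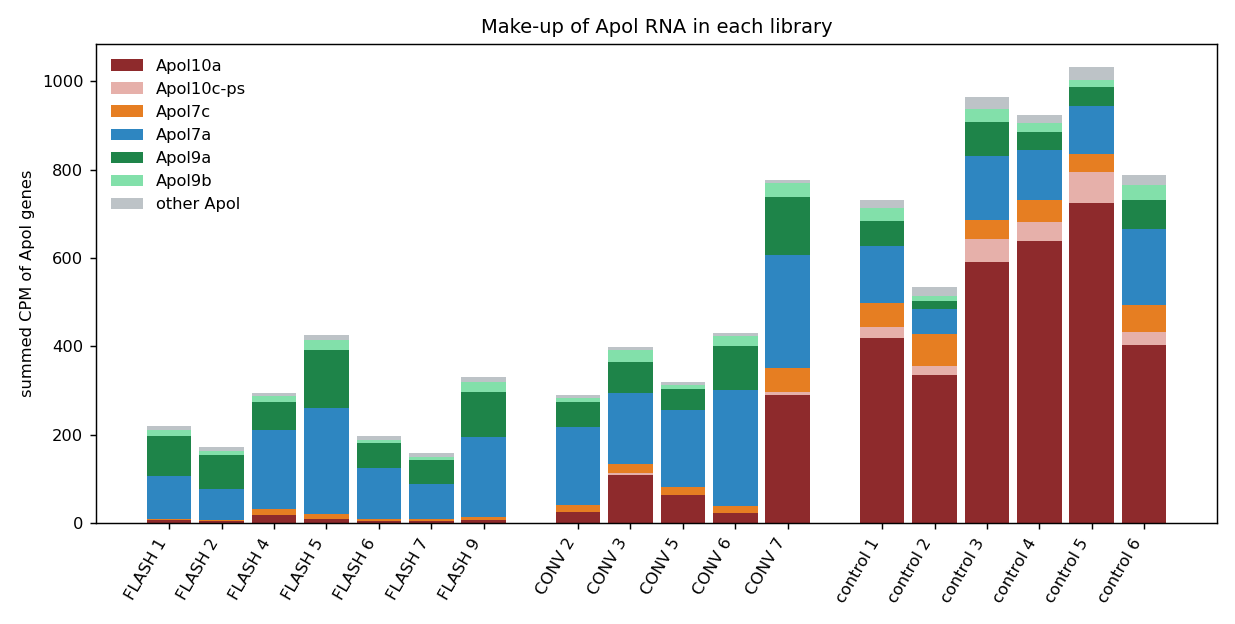
Summed CPM of the Apol genes in each library, stacked by gene, with FLASH, CONV and control libraries from left to right. Apol10a is 2.17 to 6.06% of the bar in FLASH libraries and 51.3 to 70.1% in controls, and CONV 7 has the tallest irradiated bar at 777 CPM.

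A minority of the member pairs varied together apart from the group means. Over 18 libraries, the deviations of log2 CPM from the group mean were correlated for all 21 pairs of the 7 listed genes that passed the count filter, with 100000 permutations within groups. These deviations leave out the group differences that chose Apol10a and Apol7c. After adjustment over the 21 pairs, 6 passed by Pearson's r and 6 by Spearman's rho, and 2 by Pearson's r without the 2 libraries farthest from the median. The share of pairs of other genes that would pass was not computed, so these counts cannot be called particular to the family. The closest pair was Apol9a with Apol9b (r = 0.87, permutation p = 1e-05, the smallest these permutations can give, adjusted 2.1e-04; rho = 0.84, permutation p = 7.0e-05, adjusted 0.00147; r = 0.85 without CONV 7 and control 2). These copies share transcript stretches, whose part in this relation was not tested. Apol7c with Apol10b followed (r = 0.80, permutation p = 4.3e-04, adjusted 0.00451; rho = 0.76, permutation p = 0.00157, adjusted 0.014; r = 0.80 without CONV 7 and FLASH 4). Apol10a was related to Apol7c (r = 0.69, permutation p = 0.0035, adjusted 0.0122; rho = 0.61, permutation p = 0.0115, adjusted 0.0403), but without CONV 6 and CONV 7 r was 0.57 and the adjusted permutation p 0.071, so that relation rests partly on those libraries. Apol10a with Apol10b had r = 0.56 (permutation p = 0.00119, adjusted 0.00588; rho = 0.66, permutation p = 0.00333, adjusted 0.014) and r = 0.61 without CONV 6 and CONV 7 (adjusted permutation p = 0.0506), so its call was lost too. Apol7a was related to Apol9a (r = 0.74, permutation p = 9.3e-04, adjusted 0.00588; rho = 0.69, permutation p = 0.00275, adjusted 0.014) and to Apol9b (r = 0.72, permutation p = 0.0014, adjusted 0.00588; rho = 0.72, permutation p = 0.002, adjusted 0.014). Without FLASH 5 and control 2 the r values of these pairs were 0.59 and 0.62, both with an adjusted permutation p of 0.071, so these relations too rest partly on the libraries left out. The other 15 pairs, including all 6 with Apol6, did not pass, and r was negative for each pair with Apol6, down to -0.50 with Apol10a.

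Across all 18 libraries and 10274 genes with at least 5 CPM on average, the genes with the profile most like Apol10a by Pearson's r of log2 CPM were Phkb (0.973), Cdca7 (0.966), Il17rc (0.963), Gpd1l (0.963) and Ttc27 (0.956). Those most like Apol7c were Haus8 (0.979), Cdca7 (0.970), Ikbke (0.957), Mbd3 (0.956) and Batf2 (0.954). These values include the differences between groups and are a description, and Cdca7 was on both lists. With the group means taken out, r was 0.87 for Phkb with Apol10a and 0.90 for Haus8 with Apol7c. Both genes were picked as the most alike of 10274 over the same libraries. Their values are therefore a description too and cannot be set against that of Apol10a with Apol7c. Il17rc encodes a subunit of the interleukin-17 receptor, Ikbke the kinase IKK-epsilon of innate immune signalling, and Batf2 an interferon-inducible transcription factor. These were picked from the lists for comment, none of them ranked first, and a shared function of the lists was not tested. The first-ranked Phkb averaged 12.8 CPM in FLASH, 19.9 CPM in CONV and 28.1 CPM in control libraries. In the same order Haus8 averaged 2.66, 5.92 and 8.12 CPM and Cdca7 14.2, 24.6 and 41.1 CPM. Il17rc averaged 28.5, 66.8 and 117 CPM, and Batf2 4.90, 17.4 and 25 CPM.

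The position of the genes was examined next, because the family lies in 1 array. Besides Apol genes, 35 genes lay between 200 kb before the first and 200 kb after the last Apol gene of chromosome 15, and 12 had enough counts to test. Gm8221, an unprocessed pseudogene inside the array that shares 100-base stretches with Apol7b, Apol7c and Apol7e, passed in every comparison. It averaged 0.623 CPM in FLASH, 2.38 CPM in CONV and 10.3 CPM in control libraries, with log2 fold changes of -4.05 ± 0.37 (SE) for FLASH against control, -2.11 ± 0.38 for CONV against control and -1.94 ± 0.37 for FLASH against CONV (edgeR adjusted p = 4.8e-07, 0.001 and 0.00202). Of the other 11, 1 passed in FLASH against control, 2 in CONV against control and 2 in FLASH against CONV, where 37.7%, 22.2% and 19.8% of all genes passed. In FLASH against control it was Zfp7, a zinc-finger gene (log2 fold change 0.47 ± 0.16, edgeR adjusted p = 0.0263). In CONV against control Commd5 rose (0.78 ± 0.28, edgeR adjusted p = 0.0492) and Myh9, the non-muscle myosin heavy chain gene next to the array, fell (-1.58 ± 0.55, edgeR adjusted p = 0.0467). In FLASH against CONV Foxred2 was higher (1.43 ± 0.40, edgeR adjusted p = 0.018) and Txn2, mitochondrial thioredoxin, was lower (-0.54 ± 0.19, edgeR adjusted p = 0.0496). Commd5, Myh9 and Txn2 lost their call in 14, 13 and 16 of the alternatives, and Zfp7 in 8. The median log2 fold change of the 12 was -0.01, -0.07 and 0.05 in the 3 comparisons. Within the array itself, Apol7a and Apol9a lie less than 100 kb from Apol10a and had log2 fold changes of 0.19 and 0.72 in FLASH against control that did not pass.

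**Figure D5:**
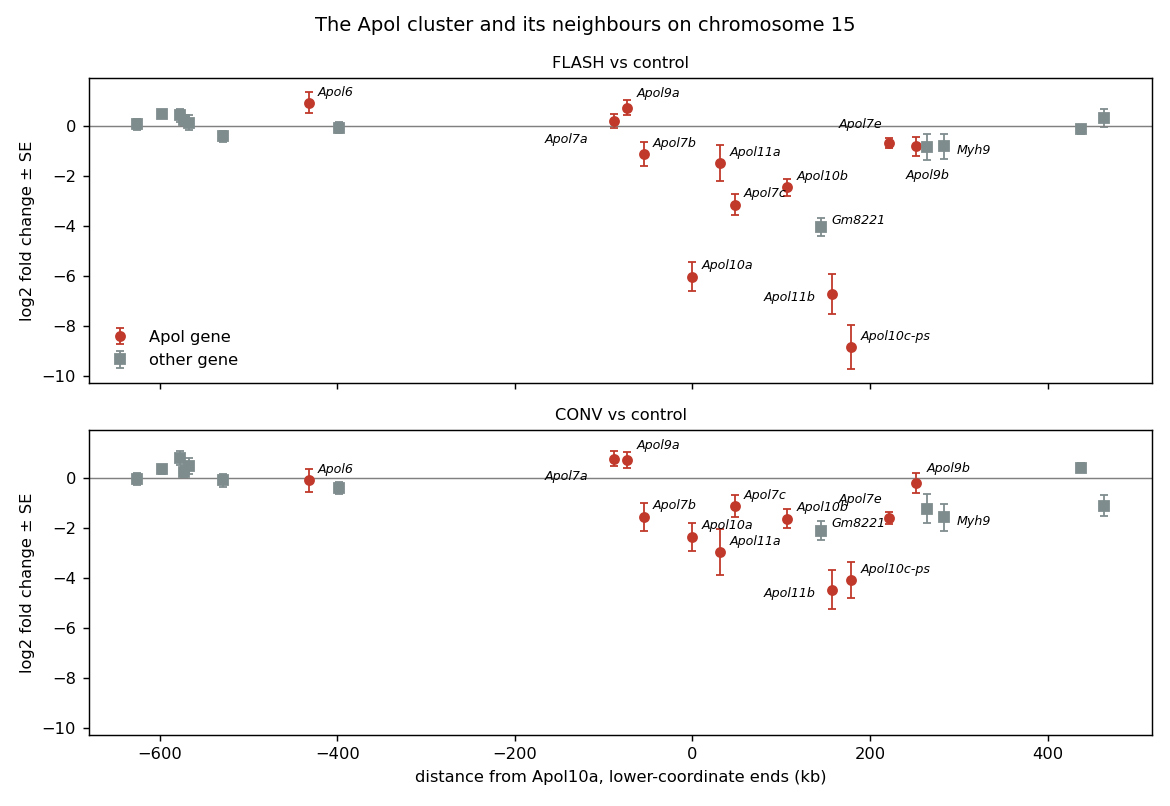
Log2 fold change ± SE of Apol genes (circles) and other tested genes (squares) against the distance in kb of each gene's lower-coordinate end from that of Apol10a, for FLASH against control (top) and CONV against control (bottom). Apol10a (-6.02), Apol11b (-6.71) and Apol10c-ps (-8.84) lie lowest in FLASH, with Apol7a (0.19) and Apol9a (0.72) beside them above 0.

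Since many Apol genes are interferon targets, 3 interferon lists were read alongside. Over all genes, 21.0% were lower and 16.7% higher in FLASH against control, 12.0% and 10.2% in CONV against control, and 9.91% and 9.88% in FLASH against CONV. All 25 of 25 interferon-gamma targets fell in FLASH against control, and 21 of 25 fell in CONV against control. The median log2 fold change was -1.68 and -1.18. Ciita, the regulator of MHC class II, averaged 6.17 ± 3.13 CPM in FLASH (SD, n = 7), 10.4 ± 3.93 CPM in CONV (SD, n = 5) and 46.6 ± 14.2 CPM in control (SD, n = 6). The guanylate-binding protein gene Gbp6 averaged 4.81 ± 1.75, 9.35 ± 6.11 and 46.2 ± 22 CPM in the same order. Between FLASH and CONV 5 of 25 were lower, among them the chemokine gene Cxcl10 (log2 fold change -2.32 ± 0.45, edgeR adjusted p = 0.00227) and Tgtp1, a T-cell-specific GTPase (-1.10 ± 0.27, edgeR adjusted p = 0.00948). Without CONV 2 or CONV 6 the CONV against control count was 13 and 12, and the FLASH against CONV count ranged between 2 and 8 over the alternatives that moved it.

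In the type I interferon-stimulated list fewer genes passed. In FLASH against control 14 of 30 fell and 2 rose, with a median log2 fold change of -0.71. In CONV against control 3 of 30 fell and 2 rose, which is not above the shares of all genes, the 2 being the antiviral GTPase genes Mx1 (log2 fold change 1.40 ± 0.26, edgeR adjusted p = 0.00142) and Mx2 (1.42 ± 0.32, edgeR adjusted p = 0.00529). In FLASH against CONV 6 fell, including Isg15, a ubiquitin-like modifier (-1.49 ± 0.46, edgeR adjusted p = 0.029), whose call was lost in 9 alternatives. Leaving out FLASH 6, FLASH 7 or control 3 gave 8, 9 and 8 falls in FLASH against control. Leaving out CONV 2, CONV 6 or CONV 7 gave 1, 0 and 6 falls in CONV against control. Leaving out FLASH 6, FLASH 7 or CONV 7 gave 3, 3 and 2 falls in FLASH against CONV.

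Of the interferon ligands, receptors and kinases, 9 of 13 were tested, and 6 rose in FLASH against control, 2 rose in CONV against control and 3 were higher in FLASH than in CONV. Over all genes 16.7%, 10.2% and 9.88% were higher in these comparisons. Leaving out CONV 2, CONV 6, CONV 7 or any of controls 1 to 5 reduced the CONV against control count to 0 or 1, and leaving out FLASH 4 raised the FLASH against CONV count to 6. With library totals alone as the scaling, 3 rose in FLASH and 0 in CONV against control. Ifnar2, a chain of the type I interferon receptor, averaged 48.1 ± 8.35 CPM in FLASH (SD, n = 7), 32.0 ± 5.05 CPM in CONV (SD, n = 5) and 21.9 ± 3.84 CPM in control (SD, n = 6). The mean of Ifnar2 ran higher in the groups in which the means of Apol10a, Apol7c and Apol10b ran lower, and a relation between them was not tested. In 5 alternatives of FLASH against control, 6 of CONV against control and 2 of FLASH against CONV, 1 member of the list was called lower.

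The classical lipoprotein apolipoproteins, which share the name and include carriers of dietary lipid out of enterocytes, were read beside them. Of 12 genes 10 were tested, and 5 rose in FLASH against control, 5 rose in CONV against control and 2 were higher in FLASH than in CONV. Over all genes 16.7%, 10.2% and 9.88% were higher in these comparisons. The median log2 fold change of the 10 listed genes was 1.10, 0.85 and 0.01. Apoa4 averaged 31786 ± 10229 CPM in FLASH (SD, n = 7), 23637 ± 10330 CPM in CONV (SD, n = 5) and 5110 ± 2958 CPM in control (SD, n = 6). Apob, the structural protein of chylomicrons, was higher in FLASH than in CONV (log2 fold change 1.33 ± 0.37, edgeR adjusted p = 0.0177). Leaving out CONV 6, control 1, control 2 or control 5 reduced the CONV against control count to 2, and leaving out CONV 2 or CONV 7 reduced the FLASH against CONV count to 1.

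Markers of 12 cell types or states of the jejunum were read in the same libraries. Over all genes, 21.0% were lower and 16.7% higher in FLASH against control, and 12.0% and 10.2% in CONV against control. In FLASH against CONV the shares were 9.91% and 9.88%. Enterocyte markers, present in every group as the labelled tissue requires, summed to 65371 to 109902 CPM in FLASH, 59972 to 108641 CPM in CONV and 20885 to 44684 CPM in control libraries. Of these 12 markers 8 rose in FLASH and 6 in CONV against control, and with library totals alone as the scaling 5 rose in FLASH. Dendritic cell markers summed to 29.1 to 60.1 CPM in FLASH, 23.6 to 45.2 CPM in CONV and 45.9 to 125 CPM in control libraries. Of these 10 markers 8 fell in FLASH and 6 in CONV against control. In FLASH against CONV 1 was higher and 1 lower, and these calls were lost in 5 and 16 alternatives, both of them without FLASH 2 or CONV 6. Without control 2 the FLASH count was 5. Crypt base stem cell markers summed to 111 to 167 CPM in FLASH, 86.2 to 194 CPM in CONV and 713 to 1197 CPM in control libraries, and 6 of 8 fell in FLASH and 4 of 8 in CONV. Of these 8 markers 3 were lower in FLASH than in CONV, a count that was 0 or 1 in 7 alternatives. Paneth cell markers summed to 4432 to 12766 CPM in FLASH, 11590 to 20183 CPM in CONV and 14846 to 20209 CPM in control libraries. Of these 8 markers, 6 fell in FLASH against control, 0 fell and 1 rose in CONV against control, and 6 were lower in FLASH than in CONV. The CONV increase was lost in 14 alternatives, among them leaving out CONV 2, 3, 6 or 7 or control 1, 2, 4 or 5. B and plasma cell markers summed to 909 to 2218 CPM in FLASH, 758 to 2071 CPM in CONV and 4945 to 10229 CPM in control libraries, and 7 of 8 fell in FLASH and 4 of 8 in CONV.

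Smooth muscle markers summed to 596 to 1435 CPM in FLASH, 280 to 1521 CPM in CONV and 1500 to 4355 CPM in control libraries, and 8 of 8 fell in FLASH and 4 of 8 in CONV. Without control 1 the FLASH count was 4, and without CONV 2, 6 or 7 or control 1, 2 or 5 the CONV count was 1 or 2. T and NK cell markers summed to 74.3 to 225 CPM in FLASH, 45 to 217 CPM in CONV and 120 to 476 CPM in control libraries, and 5 of 8 fell in FLASH and 6 of 8 in CONV. Without CONV 2, 3, 5 or 6 or control 3 the CONV count was 2 or 3. Fibroblast markers summed to 397 to 521 CPM in FLASH, 255 to 502 CPM in CONV and 378 to 1201 CPM in control libraries. Of these 8 markers 5 fell and 1 rose in FLASH and 3 fell in CONV, where 1 fell without CONV 2, 6 or 7 or control 1, 2, 4 or 5. Villus tip enterocyte markers summed to 2473 to 6856 CPM in FLASH, 2257 to 3936 CPM in CONV and 761 to 1765 CPM in control libraries. Of these 8 markers 5 rose in FLASH and 5 in CONV, where 3 rose without CONV 2 or 6 or control 1, 2 or 5. Macrophage markers overlapped between groups, at 163 to 254 CPM in FLASH, 173 to 199 CPM in CONV and 176 to 364 CPM in control libraries. Of these 8 markers 3 fell and 2 rose in FLASH, and 4 fell in CONV. The falls in FLASH numbered 1 without FLASH 1 or 6 or control 1, 2 or 4, and the rises 1 without FLASH 7 or control 3 or 6. Of 8 goblet cell markers 2 fell and 1 rose in FLASH, and 1 fell and 2 rose in CONV. Of 8 endothelium markers 1 fell in FLASH and 1 in CONV. Over all genes 21.0% fell and 16.7% rose in FLASH, and 12.0% and 10.2% in CONV, against control. With 8 markers each, the goblet cell and endothelium counts are near these shares. Without control 2 the goblet cell counts were 1 and 0 in FLASH and 0 and 0 in CONV, and the endothelium counts of falls were 0 and 0. Without control 6 the endothelium counts of falls were 2 in FLASH and 5 in CONV. In that setting 2 goblet cell markers rose in FLASH and 2 fell in CONV. These counts thus depend on single control libraries. No marker of the 12 lists was at 0 in a whole group. Their part in the Apol levels was not tested.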

How the data were processed

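RNA of whole jejunum was sequenced as single-end reads of 100 bases from stranded mRNA libraries made with 250 ng of total RNA, per the labels' protocols. The submitters' processing notes name STAR, Salmon, edgeR 3.40.2, limma 3.54.2 and build mm10, with no roles. The deposited table of expected counts per gene was taken as the main measurement; 73.3 to 76.9% of its nonzero values were whole within 0.0005. The authors' deposited log2 table of 19193 genes served as an alternative. Whether counting used the strand is not given in the sources used here; opposite-strand neighbours of Apol6 and Apol7e had at most 6 counts.

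Counts were rounded, filtered by filterByExpr, scaled by TMM and fitted in edgeR 4.0.16 (R 4.3.3) with the quasi-likelihood test over all 18 libraries, with p-values adjusted over 16257 genes at 0.05. Library totals were 23.1 to 30.2 M counts in FLASH, 19.9 to 27.0 in CONV and 24.3 to 27.8 in control; intervals cover the spread between libraries. The slope of log2 level on transcript length was steepest in control 6 (-0.41), CONV 6 (-0.43) and FLASH 1 (-0.34). No libraries were duplicates. Symbols were found for 54409 of 54532 identifiers. The labels' numbers were tested as pairs and not used, and no batch is given in the sources used here. Each self-test ran on simulated counts.

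The members and lists were chosen with earlier results of these data known. Named are all Apol genes, up to 4 genes with the smallest p per list and comparison, neighbours that passed (up to 6), and the 5 genes most like Apol10a and Apol7c. Alternatives were DESeq2 1.42.0, limma 3.58.1 (voom and trend), sva 3.50.0, other scalings and filters, a length and GC offset, the replicate block, summed paralogs and leaving out each library.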

Additional observations from a re-analysis of the deposited data

Results flagged for a closer look

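In 36 gene-by-group sets the extreme library was set against Dixon's 95% critical value, which chance passes in about 1 of 20 sets. Apol10a in FLASH 4 was 17.9 CPM, with the next FLASH library at 9.56 CPM, and the pseudogene Apol10c-ps in the same library was 0.396 CPM, with the next at 0.162 CPM. Apol7c in CONV 7 was 54.1 CPM, with the next CONV library at 21 CPM. Apol11a in CONV 3 was 0.209 CPM, which is 6 counts, with the other CONV libraries at 0.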

How the results depend on the processing

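Each result was recomputed under the other settings, and the fold changes of Apol10a and Apol10b kept their direction in all of them. With near-identical paralogs summed, the Apol10b value is that of its sum with Apol10a, so that setting cannot show the direction of Apol10b alone. The count of the 5 tested members that passed in FLASH against control was 2 with library totals only, with limma-voom, with only the 2 groups compared and with the length and GC offset, and 3 with DESeq2 and with 1 surrogate variable; leaving out libraries gave 1 to 2, with 2 without control 3 or control 6. In CONV against control it was 2 with DESeq2, and 1 to 2 on leaving out libraries, with 2 without control 6. In FLASH against CONV it was 1 with limma-voom and with near-identical paralogs summed, where Apol10b is counted with Apol10a, and 0 to 1 on leaving out libraries, with 1 without FLASH 5. Over all genes, leaving out libraries gave 5074 to 7164 genes in FLASH against control, 1869 to 6493 in CONV against control (2171 without CONV 2, 1869 without CONV 6, 2277 without control 2, 2359 without control 5, 6493 without control 6) and 2171 to 3680 in FLASH against CONV, where 1 surrogate variable gave 5988. With Apol7a, Apol7b, Apol7c, Apol7d and Apol7e summed, the sum, which is mostly Apol7a, reversed the CONV against control value of Apol7c and of Apol7e to 0.33, and the FLASH against CONV value of Apol7e to -0.64, none of which passed for Apol7e. The same sum also moved the Apol7c values to -0.30 in FLASH against control and -0.64 in FLASH against CONV. Library totals only shifted the median of all genes to -0.44, -0.25 and -0.18 in FLASH against control, CONV against control and FLASH against CONV. Of the 21 pairs of members, 2 passed without the 2 farthest libraries. Where no cause is given, the cause was not tested.

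The replicate block gave 4279, 2525 and 1569 genes in FLASH against control, CONV against control and FLASH against CONV, and 1, 1 and 0 of the tested members. It changed no call of a tested Apol gene. Same-numbered libraries had correlations of deviations between -0.27 and 0.61, so the numbers were not taken as pairs. Apol6, Apol8, Apol11a and Apol11b had few counts, which limits what a difference in them can show.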
